A study of Mus musculus with 48 samples.

Results

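The transcripts of the NF-kB transcription factor family and of its IkB inhibitors were followed in splenic regulatory T cells (Tregs) and CD25- conventional CD4 T cells (Tcons) of mice given IL-2 or attenuated IL-2 muteins. The 10 genes, out of 53345 in the deposited tables, were picked by symbol, as members of the family, with earlier results of these data known. They are the subunits with a transactivation domain (Rel, Rela and Relb), the precursor subunits (Nfkb1 and Nfkb2), the classical IkB proteins (Nfkbia, Nfkbib and Nfkbie) and a pair of nuclear IkB proteins (Nfkbid and Nfkbiz). All 10 had a value in each of the 48 libraries and passed the filter on low counts in every comparison. The smallest expected count behind any of their values was 834, for Nfkbib.

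NF-kB is a family of dimeric transcription factors held in the cytoplasm by IkB proteins. In the canonical pathway, signals from the T cell receptor, CD28 and TNF family receptors activate the IKK kinase, IkB is degraded, and dimers of c-Rel (Rel) or RelA (Rela) with p50 (Nfkb1) enter the nucleus. In the non-canonical pathway, the kinase NIK (Map3k14) triggers the processing of p100 (Nfkb2) to p52, which acts with RelB (Relb). Several members are themselves NF-kB target genes, Nfkbia being the textbook feedback inhibitor. In Tregs, c-Rel is known for its part in Foxp3 induction, and the nuclear protein IkBNS (Nfkbid) for its part in Treg development.

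The mice were C57BL/6 females of 8 to 12 weeks. Each received 500 µg of isotype control or MHC II blocking antibody on day -1 and again on day 0, and on day 0 either PBS or 25 µg of human WT IL-2, H16R or 3x, all as Fc fusions. H16R and 3x are IL-2 muteins with attenuated activity, and the blocking antibody keeps MHC II from engaging CD4 T cells. Spleens were taken on day 4, and Tregs of 4 mice in each of the 8 combinations gave 32 libraries, while Tcons of 2 of those mice in each gave 16. Both cell types were separated on magnetic beads, the Tcons being the flow-through of the CD25 selection. Every mouse received an antibody, the PBS groups included. Both Treg libraries called isotype WT IL-2 replicates 3a and 3b here carry the same mouse name in the labels, so that this group may hold 3 mice and not 4, and the p-values treat them as separate. In such bulk libraries fewer cells of a type and less RNA per cell cannot be told apart.

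Library totals, rounded, ran from 18280000 to 51240000 expected counts in Tregs and from 31310000 to 51950000 in Tcons. The summed CPM of 6 Treg markers, Foxp3 and Il2ra among them, was 2724 to 5035 in Treg and 353 to 1549 in Tcon libraries, which did not overlap. RNA of other cells was present: in Tregs 9 B cell markers summed to 32.8 to 789 CPM, 5 plasma cell markers to 179 to 3438 and 10 myeloid markers to 16.5 to 712, and in Tcons to 155 to 1128, 397 to 2902 and 51.9 to 863. Of these lists S100a8 and S100a9 were at 0 in at least 1 Treg library. Isotype PBS replicate 1 and MHC II block WT IL-2 replicate 1 stood apart with 789 and 714 CPM of B cell markers, and calls that change without both are given. The 2 Tcon libraries of the isotype WT IL-2 group were less alike than those of any other Tcon group, with a chi-square per gene of 98.4 against 10.5 to 23.8.

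The members are protein-coding genes, placed here on GRCm38 with GENCODE vM21. The subunit genes are Rel (ENSMUSG00000020275) at chr11:23736847-23770970 on the minus strand, Rela (ENSMUSG00000024927) at chr19:5637483-5648130 on the plus strand, Relb (ENSMUSG00000002983) at chr7:19606217-19629438 on the minus strand, Nfkb1 (ENSMUSG00000028163) at chr3:135584655-135691547 on the minus strand and Nfkb2 (ENSMUSG00000025225) at chr19:46304320-46312385 on the plus strand. The IkB genes are Nfkbia (ENSMUSG00000021025) at chr12:55489410-55492647 on the minus strand, Nfkbib (ENSMUSG00000030595) at chr7:28758251-28767512 on the minus strand, Nfkbie (ENSMUSG00000023947) at chr17:45555703-45563169 on the plus strand, Nfkbid (ENSMUSG00000036931) at chr7:30421732-30428746 on the plus strand and Nfkbiz (ENSMUSG00000035356) at chr16:55811375-55838899 on the minus strand. The gene spans of Nfkb2 and Nfkbib overlap those of genes of the opposite strand (AC114539.1 and Psd, Ccer2 and Sirt2), and that of Nfkb1 overlaps Gm43430 on its own strand. The library kit keeps the strand, but whether the counting used it is not given in the sources used here, so reads of these 3 members may not be told apart from those of their neighbours.

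Several members have the letters of a kappa B motif, the sequence that NF-kB dimers bind, just before their start. RefSeq promoter windows on GRCm38.p6, each from 250 bases before to 50 after an annotated start, were at hand for 7 of the 10 members, 11 windows in all. The 10-base kappa B consensus, searched on both strands with overlapping matches kept, was found in 7 of these 11: the single windows of Rel, Nfkbia and Nfkbie, all 3 windows of Nfkb2 and 1 of the 3 of Nfkbid. The second and the third window of Nfkb2 overlap and share 1 match. The windows of Rela and Nfkbib held no match. Over all 32851 windows 8.5% held one. The stretches below are shown because Rel, Nfkbid and Nfkbia had the widest spans of Treg group means among the members, with Nfkbie for comparison. Capitals mark the matches, and each stretch is read along the gene's own strand, lies before the annotated start of its window and overlaps no annotated exon. For Nfkbid that is the second of 3 annotated starts, inside the gene's span, and the window at its first start held no match.
Rel, chr11:23771031-23771081, minus strand: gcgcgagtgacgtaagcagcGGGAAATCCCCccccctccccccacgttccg
Nfkbia, chr12:55492648-55492696, minus strand: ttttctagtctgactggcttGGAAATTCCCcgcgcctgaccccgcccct
Nfkbie, chr17:45555574-45555623, plus strand: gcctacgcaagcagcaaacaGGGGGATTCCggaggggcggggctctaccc
Nfkbid, chr7:30422160-30422254, plus strand: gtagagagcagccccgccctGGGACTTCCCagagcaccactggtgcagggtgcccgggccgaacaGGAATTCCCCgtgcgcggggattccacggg
A match describes these letters and is not a measured binding site.

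Per transcript length, Nfkbia was the most abundant member in Tregs and Nfkbie the least. The FPKM of Nfkbia ran from 498 to 848 over the 32 Treg libraries, with a median of 649.7. The median FPKM of the subunits was 131 for Nfkb1, 56.0 for Rela, 50.4 for Nfkb2, 42.2 for Rel and 39.8 for Relb. That of the other IkB genes was 111 for Nfkbiz, 68.0 for Nfkbid, 36.5 for Nfkbib and 24.3 for Nfkbie. Nfkb1 and Nfkbia thus led their families. Nfkbia alone made up 68.5% to 76.6% of the summed FPKM of the 5 IkB genes in Treg and 59.3% to 70.1% in Tcon libraries. The share of Nfkb1 in the summed FPKM of the 5 subunits was 33.9% ± 0.907 (SD, n = 4) in isotype PBS and 50.4% ± 4.06 in MHC II block 3x Tregs, while that of Rel was 17.5% ± 3.35 and 7.54% ± 1.66 in the same groups. Neither pair of groups overlapped.

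**Figure D1:**
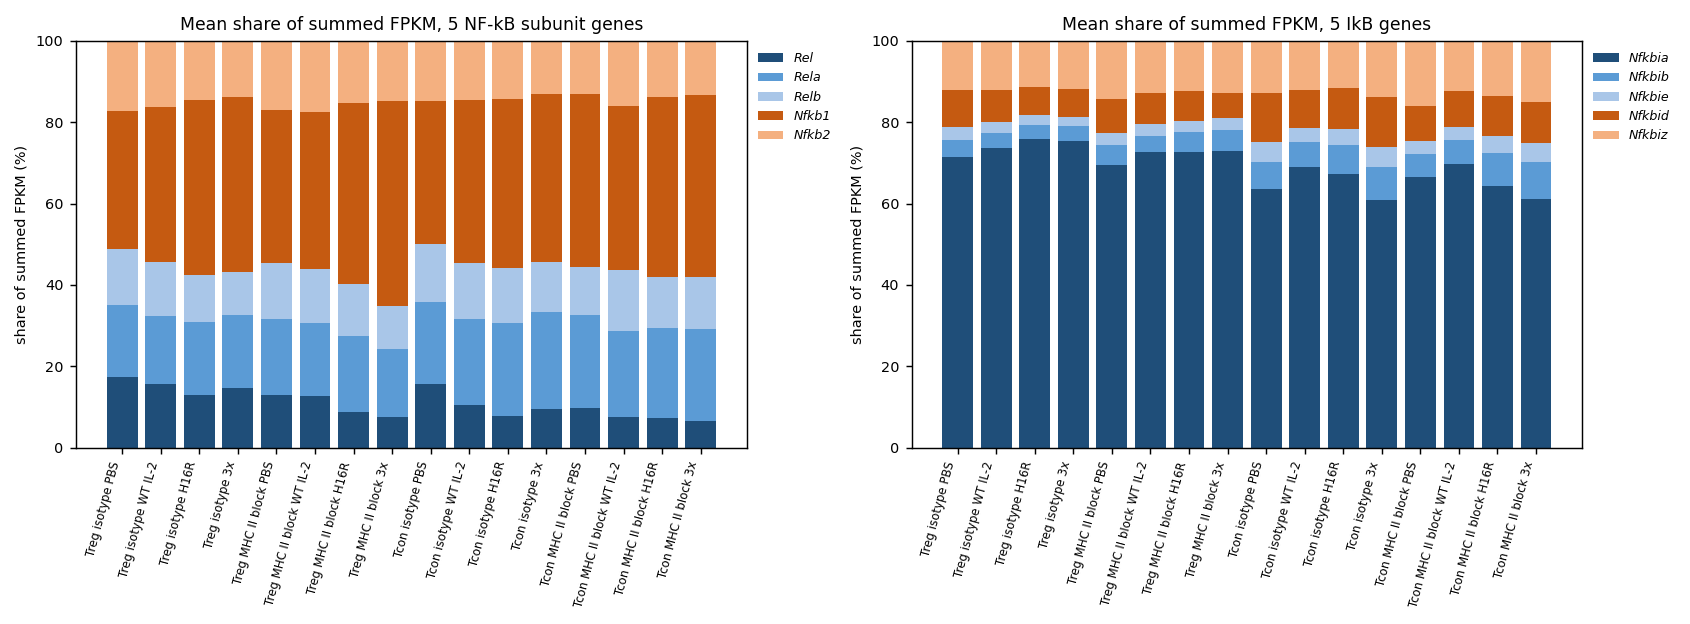
Mean share (%) of each gene in the summed FPKM of the 5 NF-kB subunit genes and of the 5 IkB genes, by group of Treg (n = 4) and Tcon libraries (n = 2), as stacked bars. Nfkbia fills most of every IkB bar, and the Nfkb1 part of the subunit bar is widest in MHC II block 3x Tregs (50.4%).

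Within Tregs, Rel varied most. Its 8 Treg group means spanned 1.48 log2 CPM units, a span above that of 88% of the tested genes, whose median span was 0.509. The spans of the other 9 members ran from 0.28 (Nfkbib) to 0.92 (Nfkbid). Values given from here on as CPM are TMM-scaled and compare 1 gene between samples. A ± after a log2 fold change is its standard error, and a gene was called at an adjusted p under 0.1 in the quasi-likelihood test of edgeR, adjusted by Benjamini-Hochberg over all tested genes.

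**Figure D2:**
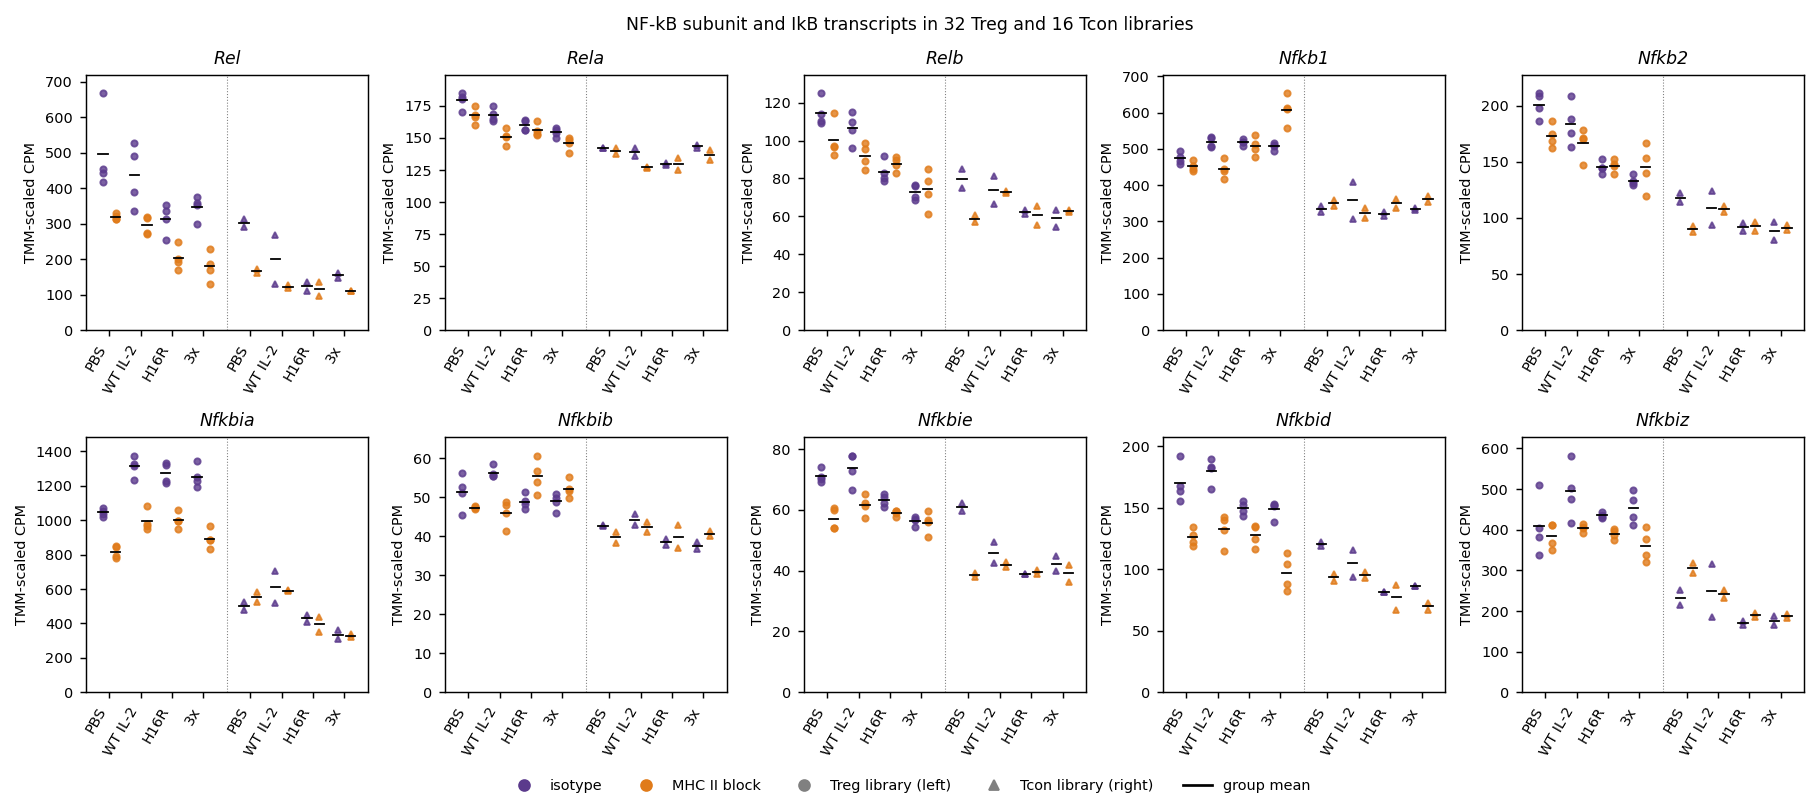
TMM-scaled CPM of each member in every Treg and Tcon library, by treatment and antibody, with group means. Rel, Nfkbia and Nfkbid sit lower under MHC II block than under isotype in Tregs of all 4 treatments, with no overlap, and Relb steps down from a mean of 115 CPM in isotype PBS to 72.7 in isotype 3x Tregs.

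All 10 members were higher in the Tregs than in the Tcons of the same mouse, in each of the 16 mice with both. The share of all tested genes that were higher in each of the 16 mice was not counted. In the 4 PBS mice, 10 of 10 were called higher and 0 lower in Tregs with the mouse as a block, where 21.7% of the 12845 tested genes were called higher and 22.9% lower. In the 12 IL-2-treated mice it was again 10 of 10, beside 40.1% of genes higher and 38.1% lower. The median log2 difference over the members was 0.47 in PBS mice and 0.66 in IL-2-treated mice, and over all tested genes it was -0.02 and 0.01.

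Nfkbia, the feedback inhibitor, differed most. Its Treg libraries had 782 to 1375 CPM with a median of 1044, and its Tcon libraries 312 to 703 with a median of 464, so that the cell types did not overlap. The ratio within a mouse ran from 1.45 to 3.82, with log2 differences of 0.81 ± 0.16 (edgeR adjusted p = 0.000741) in PBS and 1.37 ± 0.10 (edgeR adjusted p = 5.15e-10) in IL-2-treated mice. For Rel, the c-Rel subunit, the median ratio was 2.02, with 0.74 ± 0.12 (edgeR adjusted p = 6.75e-05) and 1.11 ± 0.07 (edgeR adjusted p = 7.82e-11). Nfkbiz, which encodes the nuclear protein IkB zeta, had a median ratio of 1.89. The smallest median ratios were those of Rela (1.20) and Nfkbib (1.25).

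The Treg to Tcon gap itself differed between IL-2-treated and PBS mice for 7 members, wider with IL-2 for 6 and narrower for 1, where it was wider for 19.9% of genes and narrower for 17.1%. The difference of the log2 gaps was 0.56 ± 0.13 (edgeR adjusted p = 0.00549) for Nfkbiz, 0.56 ± 0.19 (edgeR adjusted p = 0.0375) for Nfkbia, 0.37 ± 0.13 (edgeR adjusted p = 0.0493) for Rel, 0.29 ± 0.08 (edgeR adjusted p = 0.019) for Nfkbid, 0.24 ± 0.07 (edgeR adjusted p = 0.0228) for Nfkbie and 0.18 ± 0.07 (edgeR adjusted p = 0.0585) for Nfkb1. The exception was Relb, at -0.18 ± 0.06 (edgeR adjusted p = 0.0376). Single mice carried several of these calls. Without isotype PBS replicate 1 the value was 0.25 (edgeR adjusted p = 0.222) for Rel, 0.19 (edgeR adjusted p = 0.108) for Nfkbie and 0.17 (edgeR adjusted p = 0.134) for Nfkb1. Without isotype PBS replicate 2 that of Rel was 0.31 (edgeR adjusted p = 0.145). Without MHC II block PBS replicate 1 or 2, Nfkbia had 0.45 (edgeR adjusted p = 0.146) or 0.47 (edgeR adjusted p = 0.124) and Nfkb1 0.15 (edgeR adjusted p = 0.157) or 0.15 (edgeR adjusted p = 0.152), and without MHC II block 3x replicate 2 Nfkb1 had 0.16 (edgeR adjusted p = 0.102). When the mouse was not a block, 4 members were called, all with a wider gap, and the share of all genes was not counted in that fit. Relb was then at -0.18 (edgeR adjusted p = 0.142), Rel at 0.36 (edgeR adjusted p = 0.163) and Nfkb1 at 0.17 (edgeR adjusted p = 0.101). The split of wider and narrower gaps depended on the scaling. With library totals in place of TMM the value was 0.11 (edgeR adjusted p = 0.168) for Nfkb1, no longer called, and -0.19 (edgeR adjusted p = 0.022) for Nfkb2, which then joined Relb. Nfkb2 was also called with DESeq2, -0.14 (adjusted p = 0.074), and with limma on log2(FPKM + 1), -0.18 (adjusted p = 0.0192), where Nfkb1 was at 0.08 (limma adjusted p = 0.246).

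**Figure D3:**
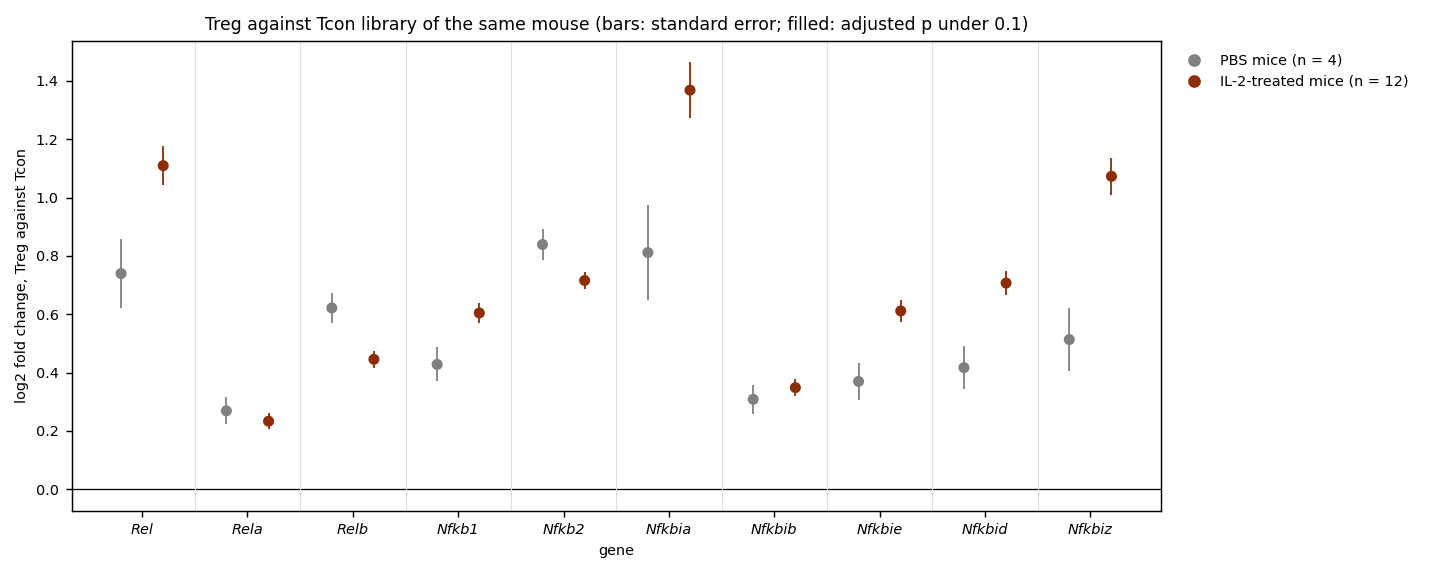
Log2 fold change of each member in the Treg against the Tcon library of the same mouse, in 4 PBS mice and 12 IL-2-treated mice; bars are standard errors and filled points were called. All points lie above 0, from 0.23 for Rela in IL-2-treated mice to 1.37 for Nfkbia in IL-2-treated mice.

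How each IL-2 molecule changed Tregs, and how much of that change needed MHC II, was the question of the treatment groups. Against PBS in the isotype arm, Rel, Rela, Relb and Nfkb2 fell with both muteins, while Nfkbia and Nfkb1 rose with all 3 molecules. With WT IL-2, 4 of 10 members rose and 1 fell, where 26% of all tested genes rose and 26.2% fell. With H16R, 2 of 10 members rose and 6 fell, where 31.4% of all tested genes rose and 32.8% fell. With 3x, 2 of 10 members rose and 6 fell, where 31.3% of all tested genes rose and 32.3% fell. Under MHC II block, with WT IL-2, 2 of 10 members rose and 1 fell, where 21.9% of all tested genes rose and 13.7% fell. With H16R under block, 3 of 10 members rose and 4 fell, where 32.7% of all tested genes rose and 33.8% fell. With 3x under block, 3 of 10 members rose and 5 fell, where 34.7% of all tested genes rose and 38.3% fell. With library totals in place of TMM, 1 rose and 5 fell with 3x under block. Under isotype that scaling gave 3 higher and 2 lower with WT IL-2, and 1 higher and 7 lower with each mutein. The 3 comparisons of an arm share its PBS libraries, and 12390 genes were tested in each.

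**Figure D4:**
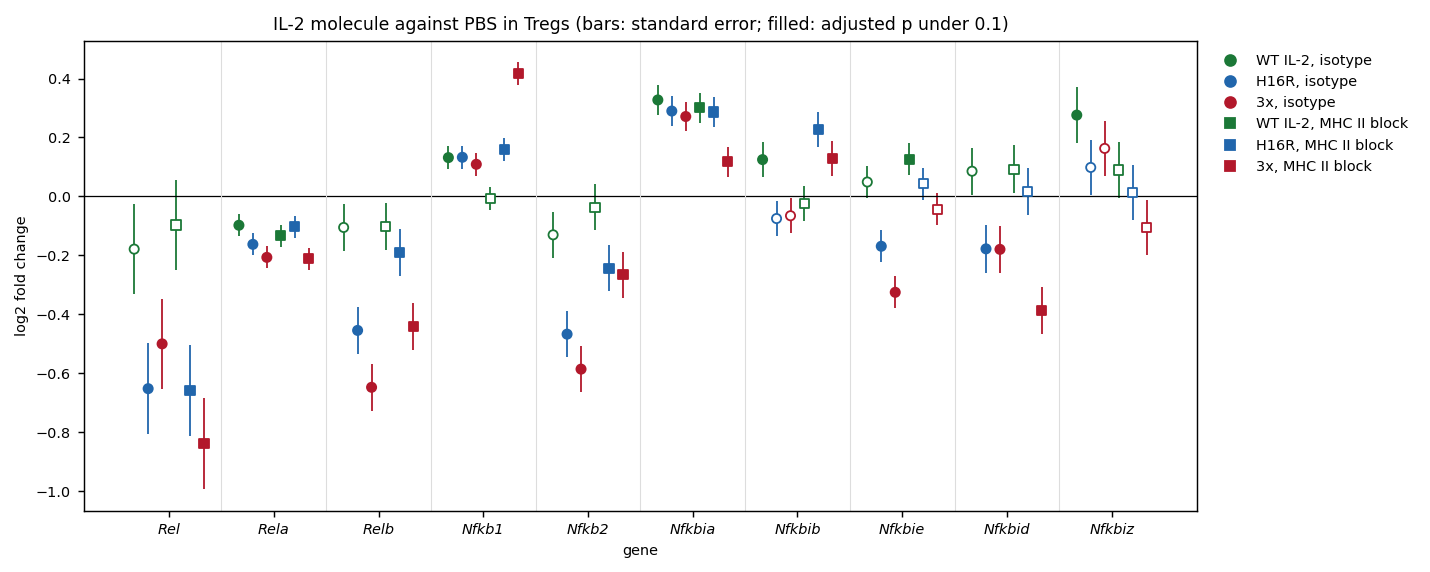
Log2 fold change of each member in Tregs for WT IL-2, H16R and 3x against PBS, with isotype or MHC II block (n = 4 libraries a group). Bars are standard errors and filled symbols were called. Rel, Relb and Nfkb2 lie below 0 with the muteins in both arms, Nfkbia lies above 0 in all 6 comparisons (0.12 to 0.33), and Nfkb1 is highest with 3x under block (0.42).

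Block against isotype within a treatment asked what MHC II contributed. The members called in PBS and WT IL-2 mice all fell, and Rel, Nfkbia and Nfkbid fell in all 4 treatments. In PBS mice, 0 of 10 members rose and 6 fell, where 6.01% of all tested genes rose and 8.13% fell. In WT IL-2 mice, 0 of 10 members rose and 9 fell, where 18.2% of all tested genes rose and 15.3% fell. In H16R mice, 1 of 10 members rose and 3 fell, where 15.4% of all tested genes rose and 15.2% fell. In 3x mice, 1 of 10 members rose and 5 fell, where 27.2% of all tested genes rose and 26.9% fell, and with library totals in place of TMM 2 rose and 4 fell. In Tregs of WT IL-2 mice, marker sums of other kinds moved with the block as well: the median was 4801 CPM under isotype and 3593 under block for the Treg markers, 4162 and 3431 for 7 T cell markers, 24.9 and 80.6 for the myeloid markers and 52.0 and 97.0 for 8 NK and CD8 T cell markers. In H16R mice the myeloid medians were 19.6 under isotype and 54.6 under block and the NK and CD8 medians 37.1 and 85.1, and in 3x mice they were 25.1 and 72.4 and 41.5 and 83.0, without overlap. In PBS mice the block libraries were not higher, with medians of 42.5 and 25.7 for myeloid and 81.5 and 63.1 for NK and CD8 markers. The part of these cells in the changes with the block was not tested. The median log2 fold change over the members was -0.21, -0.26, -0.07 and -0.07 in PBS, WT IL-2, H16R and 3x mice, and over all tested genes it lay between -0.01 and 0.01 after rounding.

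**Figure D5:**
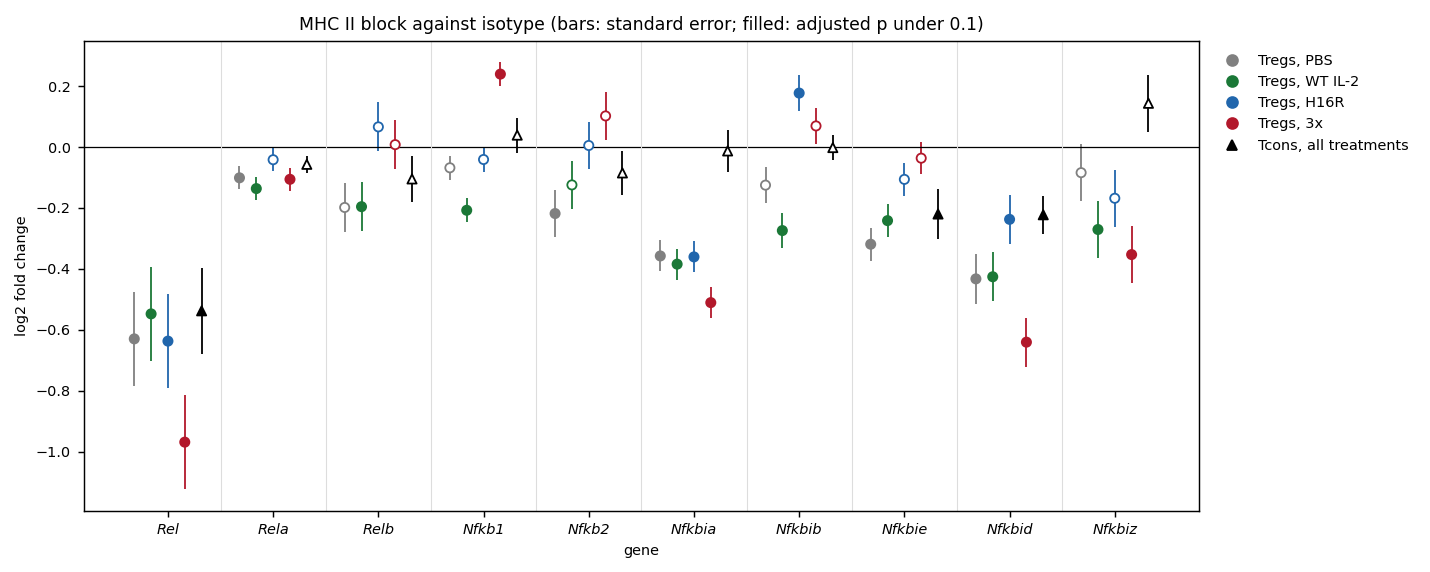
Log2 fold change of each member, MHC II block against isotype, in Tregs of PBS, WT IL-2, H16R and 3x mice (n = 4 libraries a group) and in Tcons of all treatments. Bars are standard errors and filled symbols were called. Rel, Nfkbia and Nfkbid lie below 0 in all 4 Treg comparisons, Rel lowest in 3x mice (-0.97), and in Tcons Nfkbia lies at -0.01.

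Rel encodes c-Rel, the lymphoid subunit that antigen receptor signals induce. In isotype Tregs its CPM was 418, 443, 453 and 667 with PBS. After WT IL-2 it was 337, 389, 492 and 528, after H16R 253, 314, 336 and 351 and after 3x 300.4, 353, 359 and 374. Both mutein groups lay wholly below PBS, and the WT IL-2 libraries overlapped PBS. Under MHC II block the CPM was 314, 314, 320.5 and 331 with PBS. Given WT IL-2 it was 272, 273, 317 and 319, after H16R 169, 192, 199.5 and 249 and after 3x 131, 171, 188 and 229. Every blocked group lay below its isotype group without overlap, and the blocked mutein groups lay below blocked PBS. The highest group mean was 495 ± 116 CPM (SD, n = 4) in isotype PBS and the lowest 179.8 ± 40.7 in MHC II block 3x, a ratio of 2.76. In the order of the 8 means, isotype PBS, isotype WT IL-2, isotype 3x, block PBS, isotype H16R, block WT IL-2, block H16R and block 3x, only block WT IL-2 and block H16R did not overlap among neighbours.

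The log2 fold change of Rel against isotype PBS was -0.65 ± 0.15 (edgeR adjusted p = 0.000644) with H16R and -0.50 ± 0.15 (edgeR adjusted p = 0.00651) with 3x, while WT IL-2 gave -0.18 ± 0.15 (edgeR adjusted p = 0.354) and was not called. Against blocked PBS it was -0.66 ± 0.15 (edgeR adjusted p = 0.000573) with H16R, -0.84 ± 0.15 (edgeR adjusted p = 2.58e-05) with 3x and -0.10 ± 0.15 (edgeR adjusted p = 0.675) with WT IL-2. Block against isotype gave -0.63 ± 0.15 (edgeR adjusted p = 0.00942) in PBS mice, -0.55 ± 0.15 (edgeR adjusted p = 0.00871) with WT IL-2, -0.64 ± 0.15 (edgeR adjusted p = 0.00475) with H16R and -0.97 ± 0.15 (edgeR adjusted p = 1.34e-05) with 3x. Rel thus fell with the muteins in both arms and with the block in every treatment. No interaction of molecule and block was called for Rel, the values being 0.08 ± 0.22 (edgeR adjusted p = 0.85) for WT IL-2, -0.01 ± 0.22 (edgeR adjusted p = 0.989) for H16R and -0.34 ± 0.22 (edgeR adjusted p = 0.24) for 3x. Isotype PBS replicate 4, the shallowest Treg library, had the highest Rel level at 667 CPM. Without it the value for 3x against isotype PBS was -0.33 (edgeR adjusted p = 0.0611), and the 3x interaction was -0.51 (edgeR adjusted p = 0.0495) and was called. That interaction was also called without MHC II block 3x replicate 2, at -0.49 (edgeR adjusted p = 0.0707).

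Rel was the one member whose Treg group means spanned at least 1 log2 unit, the limit set for looking for like genes. Over the 8 Treg group means of log2 CPM, each gene centred on its own mean, the tested genes most like it were Zc3h12a (root mean square difference 0.063), Id1 (root mean square difference 0.094) and Per1 (root mean square difference 0.114). Zc3h12a encodes the RNase Regnase-1, Id1 an inhibitor of helix-loop-helix transcription factors and Per1 a clock protein. Likeness over 8 means describes these groups, which share their libraries.

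Rela encodes RelA (p65), the broadly expressed transactivating subunit. Its CPM was 171, 180.3, 182 and 185 in isotype PBS and 149.9, 154, 156 and 158 in isotype 3x Tregs, which did not overlap. It was a narrow range of levels, from 138 to 185 CPM over the 32 Treg libraries. Rela fell with all 3 molecules in both arms: under isotype it gave -0.10 ± 0.04 (edgeR adjusted p = 0.0338) with WT IL-2, -0.16 ± 0.04 (edgeR adjusted p = 0.00051) with H16R and -0.21 ± 0.04 (edgeR adjusted p = 3.11e-05) with 3x. Under block the values were -0.13 ± 0.04 (edgeR adjusted p = 0.00833) with WT IL-2, -0.10 ± 0.04 (edgeR adjusted p = 0.0186) with H16R and -0.21 ± 0.04 (edgeR adjusted p = 1.42e-05) with 3x. Block against isotype gave -0.10 ± 0.04 (edgeR adjusted p = 0.0886) in PBS, -0.14 ± 0.04 (edgeR adjusted p = 0.00727) in WT IL-2, -0.04 ± 0.04 (edgeR adjusted p = 0.438) in H16R and -0.11 ± 0.04 (edgeR adjusted p = 0.0211) in 3x mice, of which that in H16R mice was not called. The smallest of these calls rested on few libraries. The call in PBS mice was lost in 11 fits that left out 1 library (-0.10 to -0.08, edgeR adjusted p = 0.1 to 0.247) and without both libraries rich in B cell markers, at -0.09 (edgeR adjusted p = 0.154). The call in 3x mice was lost with library totals in place of TMM, at -0.06 (edgeR adjusted p = 0.138), with limma on log2(FPKM + 1), at -0.06 (limma adjusted p = 0.127), and with no filter, at -0.07 (edgeR adjusted p = 0.162). The WT IL-2 call under isotype was lost without isotype PBS replicate 3, at -0.08 (edgeR adjusted p = 0.103), or isotype WT IL-2 replicate 1, at -0.08 (edgeR adjusted p = 0.102), and the H16R call under block without MHC II block PBS replicate 4, at -0.07 (edgeR adjusted p = 0.121).

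Nfkb1, which encodes p105 and its product p50, moved the other way. In isotype Tregs its CPM was 459, 465, 478 and 494 with PBS. Its values after WT IL-2 were 506, 508, 531 and 534, after H16R 509, 518, 519.8 and 526 and after 3x 494, 508, 511 and 517. Under block it was 440.4, 446, 454 and 471 with PBS. It was, after WT IL-2, 418, 439.5, 445 and 476, after H16R 477, 499.8, 513 and 537 and after 3x 559, 609.7, 612 and 653. The 3x libraries under block lay above all other Treg libraries. Under isotype Nfkb1 rose with each molecule, by 0.13 ± 0.04 (edgeR adjusted p = 0.00791) with WT IL-2, 0.13 ± 0.04 (edgeR adjusted p = 0.00514) with H16R and 0.11 ± 0.04 (edgeR adjusted p = 0.0198) with 3x. Under block the values were -0.01 ± 0.04 (edgeR adjusted p = 0.903) with WT IL-2, 0.16 ± 0.04 (edgeR adjusted p = 0.000991) with H16R and 0.42 ± 0.04 (edgeR adjusted p = 3.66e-10) with 3x, the first of which was not called. The rises with H16R and 3x under isotype depended on the scaling: with library totals in place of TMM they were 0.07 (edgeR adjusted p = 0.158) and 0.05 (edgeR adjusted p = 0.279). Block against isotype was lower in WT IL-2 mice, -0.21 ± 0.04 (edgeR adjusted p = 0.000256), and higher in 3x mice, 0.24 ± 0.04 (edgeR adjusted p = 2.04e-05). The interaction with the block was 0.31 ± 0.06 (edgeR adjusted p = 0.000204) for 3x and -0.14 ± 0.06 (edgeR adjusted p = 0.096) for WT IL-2, and the latter was lost in 21 fits that left out 1 library (-0.15 to -0.12, edgeR adjusted p = 0.101 to 0.196) and without both libraries rich in B cell markers, at -0.12 (edgeR adjusted p = 0.196).

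Relb and Nfkb2 encode the partners of the non-canonical dimer, and they stepped down together in the isotype arm. The CPM of Relb was 109, 110.1, 114 and 125 with PBS. After WT IL-2 it was 96.3, 106, 110.0 and 115, after H16R 78.8, 80.3, 82.9 and 92.1 and after 3x 68.4, 70.2, 75.8 and 76.3. That of Nfkb2 was 187, 198, 209 and 211 with PBS. Given WT IL-2 it was 163, 176, 188 and 209, after H16R 139, 144, 145 and 153 and after 3x 129, 131, 133 and 139. For both genes the mutein libraries lay wholly below PBS and those of WT IL-2 overlapped PBS. The log2 fold change of Relb was -0.45 ± 0.08 (edgeR adjusted p = 2.21e-05) with H16R, -0.65 ± 0.08 (edgeR adjusted p = 1.16e-07) with 3x and -0.11 ± 0.08 (edgeR adjusted p = 0.293) with WT IL-2, the last not called. That of Nfkb2 was -0.47 ± 0.08 (edgeR adjusted p = 1.06e-05) with H16R, -0.59 ± 0.08 (edgeR adjusted p = 3.83e-07) with 3x and -0.13 ± 0.08 (edgeR adjusted p = 0.176) with WT IL-2, which was called only without isotype WT IL-2 replicate 2 among the fits that left out 1 library, at -0.20 (edgeR adjusted p = 0.0454). The Nfkb2 value with WT IL-2 was also called with library totals in place of TMM, -0.16 (edgeR adjusted p = 0.0811), and with limma on log2(FPKM + 1), -0.16 (limma adjusted p = 0.0803).

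Under block the CPM of Relb was 92.2, 96.7, 97.0 and 114 with PBS. Its values after WT IL-2 were 84.5, 89.4, 95.3 and 98.7, after H16R 82.9, 87.3, 90.0 and 91.3 and after 3x 61.3, 71.8, 78.4 and 85.2. That of Nfkb2 was 163, 169, 175 and 187 with PBS. It was, after WT IL-2, 148, 170.1, 171 and 178, after H16R 139, 147, 148 and 153 and after 3x 119.9, 139.7, 154 and 167. MHC II block 3x replicate 4 was the lowest library of its group for both genes, with 61.3 and 119.9 CPM. Against blocked PBS, Relb gave -0.19 ± 0.08 (edgeR adjusted p = 0.0416) with H16R and -0.44 ± 0.08 (edgeR adjusted p = 2.15e-05) with 3x, and Nfkb2 -0.24 ± 0.08 (edgeR adjusted p = 0.0085) and -0.27 ± 0.08 (edgeR adjusted p = 0.00381). The Relb call with H16R was lost without MHC II block PBS replicate 4, at -0.11 (edgeR adjusted p = 0.251), and without MHC II block 3x replicate 4 the 3x value of Nfkb2 was -0.17 (edgeR adjusted p = 0.0421). The interaction of 3x and block was called for Nfkb2, 0.32 ± 0.11 (edgeR adjusted p = 0.0288), and not for Relb, 0.21 ± 0.11 (edgeR adjusted p = 0.168). For Relb it was called without MHC II block 3x replicate 4, at 0.28 (edgeR adjusted p = 0.047), or MHC II block PBS replicate 4, at 0.28 (edgeR adjusted p = 0.0561). Block against isotype was called for Relb in WT IL-2 mice, -0.20 ± 0.08 (edgeR adjusted p = 0.0684), and for Nfkb2 in PBS mice, -0.22 ± 0.08 (edgeR adjusted p = 0.0786). Both were lost without the libraries rich in B cell markers, at -0.19 (edgeR adjusted p = 0.103) and -0.19 (edgeR adjusted p = 0.154), and they were lost in 4 fits that left out 1 library (-0.19 to -0.15, edgeR adjusted p = 0.121 to 0.202) and in 5 fits that left out 1 library (-0.22 to -0.19, edgeR adjusted p = 0.114 to 0.197).

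Markers of B lineage cells moved with the same groups. The median sum of the 5 plasma cell markers was 1941 CPM in isotype PBS mice, 835 after WT IL-2, 437 after H16R and 199 after 3x, and that of the 9 B cell markers was 167, 73.8, 38.9 and 37.3 CPM. Under block the plasma cell medians were 1697, 2743, 1124 and 1083 CPM and the B cell medians 101, 137, 82.2 and 74.1. B cells also express NF-kB genes, and the summed Treg markers also differed from PBS, with medians of 3287 CPM in isotype PBS and 4801, 4866 and 4799 after WT IL-2, H16R and 3x. The part of these cells in the levels of Relb, Nfkb2 and the other members was not tested.

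Nfkbia encodes IkB alpha, which retrieves NF-kB dimers from the nucleus. In isotype Tregs its CPM was 1021, 1035, 1054 and 1073 with PBS. After WT IL-2 it was 1236, 1313, 1328 and 1375, after H16R 1215, 1229, 1321 and 1335 and after 3x 1192, 1228, 1251 and 1342. All 3 treated groups lay above PBS without overlap. Under block it was 782, 794, 845 and 848 with PBS. Given WT IL-2 it was 947, 969, 977 and 1081, after H16R 947, 993, 996 and 1061 and after 3x 832, 885, 888 and 968. Each blocked group lay wholly below its isotype group. Nfkbia rose with every molecule in both arms, under isotype by 0.33 ± 0.05 (edgeR adjusted p = 7.6e-06) with WT IL-2, 0.29 ± 0.05 (edgeR adjusted p = 1.98e-05) with H16R and 0.27 ± 0.05 (edgeR adjusted p = 4.89e-05) with 3x, and under block by 0.30 ± 0.05 (edgeR adjusted p = 7.46e-05), 0.29 ± 0.05 (edgeR adjusted p = 2.18e-05) and 0.12 ± 0.05 (edgeR adjusted p = 0.0411). The last was lost without MHC II block 3x replicate 2, at 0.09 (edgeR adjusted p = 0.125), and with library totals in place of TMM, at 0.08 (edgeR adjusted p = 0.128). Block against isotype gave -0.36 ± 0.05 (edgeR adjusted p = 3.6e-05) in PBS, -0.38 ± 0.05 (edgeR adjusted p = 3.04e-06) in WT IL-2, -0.36 ± 0.05 (edgeR adjusted p = 1.67e-05) in H16R and -0.51 ± 0.05 (edgeR adjusted p = 8.88e-09) in 3x mice. Nfkbia thus had one direction with IL-2 and the other with the block. Its interaction of 3x and block was -0.15 ± 0.07 (edgeR adjusted p = 0.105) and was not called.

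Nfkbib and Nfkbie encode IkB beta and IkB epsilon, slower-acting relatives of IkB alpha. The CPM of Nfkbie in isotype Tregs was 69.2, 70.3, 70.9 and 74.0 with PBS. Its values after WT IL-2 were 66.5, 72.8, 77.6 and 77.8, after H16R 61.0, 62.1, 64.2 and 65.2 and after 3x 54.2, 56.7, 57.1 and 57.5. Under block it was 53.9, 54.0, 59.8 and 60.6 with PBS. It was, after WT IL-2, 57.3, 61.4, 62.2 and 65.3, after H16R 57.7, 59.0, 59.6 and 59.6 and after 3x 51.0, 56.1, 56.7 and 59.5. Block and isotype did not overlap in PBS, WT IL-2 and H16R mice and overlapped in 3x mice. Under isotype Nfkbie fell with H16R, -0.17 ± 0.05 (edgeR adjusted p = 0.00855), and with 3x, -0.33 ± 0.05 (edgeR adjusted p = 9.69e-06). It gave 0.05 ± 0.05 (edgeR adjusted p = 0.48) with WT IL-2. With the block it fell in PBS mice, -0.32 ± 0.05 (edgeR adjusted p = 0.000314), and in WT IL-2 mice, -0.24 ± 0.05 (edgeR adjusted p = 0.00117). Under block the call with WT IL-2, 0.13 ± 0.05 (edgeR adjusted p = 0.0799), was lost in 7 fits that left out 1 library (0.09 to 0.12, edgeR adjusted p = 0.108 to 0.258), without both libraries rich in B cell markers, at 0.09 (edgeR adjusted p = 0.242), and with library totals in place of TMM, at 0.08 (edgeR adjusted p = 0.273). The interaction with the block was 0.21 ± 0.08 (edgeR adjusted p = 0.0674) for H16R and 0.28 ± 0.08 (edgeR adjusted p = 0.00662) for 3x. The former was lost in 6 fits that left out 1 library (0.18 to 0.21, edgeR adjusted p = 0.107 to 0.142) and without both libraries rich in B cell markers, at 0.18 (edgeR adjusted p = 0.114).

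Nfkbib had 41.4 to 60.7 CPM over the 32 Treg libraries and was the flattest member. Its values in H16R mice were 47.0, 48.2, 49.0 and 51.4 CPM under isotype and 50.7, 54.0, 56.8 and 60.7 under block, which overlapped. The block raised it there, 0.18 ± 0.06 (edgeR adjusted p = 0.0299), a call lost without MHC II block H16R replicate 4, at 0.14 (edgeR adjusted p = 0.131). In WT IL-2 mice it fell, -0.27 ± 0.06 (edgeR adjusted p = 0.000798). Against blocked PBS it rose with H16R, 0.23 ± 0.06 (edgeR adjusted p = 0.00153), and with 3x, 0.13 ± 0.06 (edgeR adjusted p = 0.0525), the latter lost without MHC II block 3x replicate 1, at 0.12 (edgeR adjusted p = 0.114). The rise with WT IL-2 under isotype, 0.12 ± 0.06 (edgeR adjusted p = 0.0846), was lost in 5 fits that left out 1 library (0.08 to 0.13, edgeR adjusted p = 0.103 to 0.278). With library totals in place of TMM that rise was 0.09 (edgeR adjusted p = 0.173) and the one with 3x under block 0.09 (edgeR adjusted p = 0.128), neither called, while Nfkbib was called lower under isotype with H16R, -0.14 (edgeR adjusted p = 0.0295), and with 3x, -0.12 (edgeR adjusted p = 0.0591). Block against isotype in 3x mice gave 0.07 ± 0.06 (edgeR adjusted p = 0.338) for Nfkbib, and was called higher with library totals, at 0.11 (edgeR adjusted p = 0.0927), and with limma on log2(FPKM + 1), at 0.14 (limma adjusted p = 0.0364). The interaction with the block was 0.30 ± 0.08 (edgeR adjusted p = 0.0192) for H16R and 0.19 ± 0.08 (edgeR adjusted p = 0.0748) for 3x, the latter lost in 6 fits that left out 1 library (0.14 to 0.19, edgeR adjusted p = 0.101 to 0.209) and without both libraries rich in B cell markers, at 0.14 (edgeR adjusted p = 0.182).

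Nfkbid encodes IkBNS, a nuclear IkB that acts on NF-kB at target genes. In isotype Tregs its CPM was 156, 164, 168 and 192 with PBS. After WT IL-2 it was 166, 183, 183 and 189.7, after H16R 144, 148, 152 and 155 and after 3x 138, 152, 152 and 153. Under block it was 119, 122, 128 and 134 with PBS. Given WT IL-2 it was 115, 132, 140.0 and 143, after H16R 116, 125, 134 and 135 and after 3x 82.2, 87.9, 104 and 113. All 4 blocked groups lay below their isotype groups without overlap. The log2 fold change with the block was -0.43 ± 0.08 (edgeR adjusted p = 0.000846) in PBS, -0.43 ± 0.08 (edgeR adjusted p = 0.000234) in WT IL-2, -0.24 ± 0.08 (edgeR adjusted p = 0.0347) in H16R and -0.64 ± 0.08 (edgeR adjusted p = 4.24e-07) in 3x mice. With 3x under block Nfkbid fell further, -0.39 ± 0.08 (edgeR adjusted p = 0.000129) against blocked PBS. Its smaller falls under isotype, -0.18 ± 0.08 (edgeR adjusted p = 0.0588) with H16R and -0.18 ± 0.08 (edgeR adjusted p = 0.057) with 3x, each rested on single libraries. Without isotype PBS replicate 4 they were -0.12 (edgeR adjusted p = 0.236) and -0.12 (edgeR adjusted p = 0.237). The H16R call was also lost without isotype H16R replicate 3, at -0.17 (edgeR adjusted p = 0.105), or 4, at -0.16 (edgeR adjusted p = 0.127), and the 3x call without isotype 3x replicate 1, at -0.15 (edgeR adjusted p = 0.163). No interaction was called for Nfkbid, that of 3x being -0.21 ± 0.11 (edgeR adjusted p = 0.167); it was -0.30 (edgeR adjusted p = 0.0295) without MHC II block 3x replicate 2 and -0.27 (edgeR adjusted p = 0.0645) without isotype PBS replicate 4.

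Nfkbiz encodes IkB zeta, an inducible nuclear IkB. In isotype Tregs its CPM was 338, 382, 405 and 511 with PBS. Its values after WT IL-2 were 417, 475, 502 and 582, after H16R 429, 432, 437 and 444 and after 3x 411, 432, 472 and 498. Under block it was 349.9, 367, 412 and 412 with PBS. It was, after WT IL-2, 393, 405, 406 and 414, after H16R 374, 387, 396 and 401 and after 3x 319, 337, 377 and 408. Block and isotype overlapped in PBS mice and did not in WT IL-2, H16R and 3x mice. With the block Nfkbiz fell in WT IL-2 mice, -0.27 ± 0.09 (edgeR adjusted p = 0.0323), and in 3x mice, -0.35 ± 0.09 (edgeR adjusted p = 0.00314), and gave -0.08 ± 0.09 (edgeR adjusted p = 0.633) in PBS and -0.17 ± 0.09 (edgeR adjusted p = 0.196) in H16R mice. It rose with WT IL-2 under isotype, 0.28 ± 0.09 (edgeR adjusted p = 0.018). Isotype WT IL-2 replicate 3b carried both WT IL-2 calls. Without it the change with the block was -0.18 (edgeR adjusted p = 0.162) and the change with WT IL-2 was 0.19 (edgeR adjusted p = 0.111). Without isotype PBS replicate 4, Nfkbiz rose with H16R, 0.22 (edgeR adjusted p = 0.0355), and with 3x, 0.29 (edgeR adjusted p = 0.00723), neither of which was called with all libraries, at 0.10 ± 0.09 (edgeR adjusted p = 0.382) and 0.16 ± 0.09 (edgeR adjusted p = 0.14).

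The molecules were dosed alike, so that they could be compared with each other, in 3 pairs in each arm. Under isotype the muteins were lower than WT IL-2 for 6 members each. H16R against WT IL-2 had 0 members higher and 6 lower, beside 8.87% of genes higher and 9.77% lower, and 3x against WT IL-2 had 0 and 6, beside 16.9% of genes higher and 17.7% lower. Relb was lower with H16R, -0.35 ± 0.08 (edgeR adjusted p = 0.00498), and with 3x, -0.54 ± 0.08 (edgeR adjusted p = 1.53e-05), and Nfkb2 likewise, -0.34 ± 0.08 (edgeR adjusted p = 0.00557) and -0.46 ± 0.08 (edgeR adjusted p = 9.02e-05). Rel was lower with H16R, -0.47 ± 0.15 (edgeR adjusted p = 0.041), a call lost without isotype H16R replicate 3, -0.38 (edgeR adjusted p = 0.189), isotype WT IL-2 replicate 2, -0.41 (edgeR adjusted p = 0.128), or isotype WT IL-2 replicate 3b, -0.37 (edgeR adjusted p = 0.159). Rel gave -0.32 ± 0.15 (edgeR adjusted p = 0.12) with 3x and was called without isotype WT IL-2 replicate 1, -0.43 (edgeR adjusted p = 0.0423), isotype PBS replicate 4, -0.33 (edgeR adjusted p = 0.0729), or MHC II block 3x replicate 4, -0.31 (edgeR adjusted p = 0.0965). Nfkbid, Nfkbie and Nfkbib were lower with both muteins as well, from -0.37 (Nfkbie with 3x) to -0.19 (Nfkbib with 3x). The sixth member with 3x was Rela, -0.11 ± 0.04 (edgeR adjusted p = 0.0292), which was lost in 2 fits that left out 1 library (-0.09, edgeR adjusted p = 0.102 to 0.116). Fewer members were called between the muteins: 3x against H16R had 0 members higher and 1 lower, beside 5.76% of genes higher and 5.77% lower. The one call was Nfkbie, -0.16 ± 0.05 (edgeR adjusted p = 0.0724), which was lost in 5 fits that left out 1 library (-0.16 to -0.14, edgeR adjusted p = 0.122 to 0.211). For Rel the difference was 0.15 ± 0.15 (edgeR adjusted p = 0.637), and an interval of 2 standard errors on each side ran from -0.15 to 0.46. For Nfkbia it ran from -0.12 to 0.08 and for Nfkb1 from -0.10 to 0.05. That of Relb, from -0.35 to -0.03, lay below 0, and Relb was called in 1 fit that left out 1 library, at -0.19 (edgeR adjusted p = 0.0966).

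Under block all 10 members were called between 3x and WT IL-2. H16R against WT IL-2 had 2 members higher and 2 lower, beside 25.5% of genes higher and 32% lower. For 3x against WT IL-2 it was 2 and 8, beside 30% of genes higher and 38.7% lower, and for 3x against H16R 1 and 4, beside 12.7% of genes higher and 12.6% lower. Against WT IL-2, Rel was lower with H16R, -0.56 ± 0.15 (edgeR adjusted p = 0.0038), and with 3x, -0.74 ± 0.15 (edgeR adjusted p = 0.000173). Nfkbid did not pass between H16R and WT IL-2, -0.08 ± 0.08 (edgeR adjusted p = 0.448), and was lower with 3x than with WT IL-2, -0.48 ± 0.08 (edgeR adjusted p = 1.26e-05), and than with H16R, -0.40 ± 0.08 (edgeR adjusted p = 0.000945). Nfkb1 was higher with 3x than with WT IL-2, 0.42 ± 0.04 (edgeR adjusted p = 1.02e-09), and than with H16R, 0.26 ± 0.04 (edgeR adjusted p = 7.63e-05). MHC II block 3x replicate 4 carried part of this pattern. Without it, 3x against H16R was -0.14 (edgeR adjusted p = 0.101) for Nfkbia, -0.17 (edgeR adjusted p = 0.154) for Relb and -0.08 (edgeR adjusted p = 0.177) for Rela, and 3x against WT IL-2 was -0.12 (edgeR adjusted p = 0.16) for Nfkb2, -0.10 (edgeR adjusted p = 0.114) for Nfkbie, -0.11 (edgeR adjusted p = 0.338) for Nfkbiz and -0.03 (edgeR adjusted p = 0.591) for Rela, none of them called. Of these 3x against WT IL-2 calls, that of Rela was lost in 14 fits that left out 1 library (-0.07 to -0.03, edgeR adjusted p = 0.106 to 0.591) and without both libraries rich in B cell markers, at -0.07 (edgeR adjusted p = 0.149), and that of Nfkbiz in 6 fits that left out 1 library (-0.19 to -0.11, edgeR adjusted p = 0.114 to 0.338). That of Nfkbib, 0.15 ± 0.06 (edgeR adjusted p = 0.024), was lost without MHC II block WT IL-2 replicate 3, 0.10 (edgeR adjusted p = 0.138).

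Whether the block altered the response to a molecule was tested as the interaction, the log2 fold change against PBS under block minus that under isotype. For WT IL-2, 0 members were called with a higher and 1 with a lower value, beside 11.7% and 7.98% of genes. For H16R, 2 members were called with a higher and 0 with a lower value, beside 10.6% and 8.47% of genes. For 3x, 4 members were called with a higher and 0 with a lower value, beside 20.3% and 18.7% of genes. The members called for 3x were Nfkb1, Nfkb2, Nfkbib and Nfkbie, whose values stand above with the genes. Rel, Rela, Relb, Nfkbia, Nfkbid and Nfkbiz were not called for any molecule with all libraries, the 3x value of Nfkbiz being -0.27 ± 0.13 (edgeR adjusted p = 0.124). Of the 32 fits that left out 1 library, the 3x interaction was called for Nfkbia in 5 fits (-0.21 to -0.15), Nfkbiz in 5 fits (-0.39 to -0.27), Rel in 2 fits (-0.51 to -0.49), Nfkbid in 2 fits (-0.30 to -0.27) and Relb in 2 fits (0.28), and the H16R interaction for Relb in 4 fits (0.26 to 0.34). The WT IL-2 interaction was called in 1 fit each for Nfkbiz (-0.32) and Nfkbib (-0.21), and for Nfkbib also without both libraries rich in B cell markers, at -0.24 (edgeR adjusted p = 0.0404). For 3x, isotype PBS replicate 4 and MHC II block 3x replicate 2 were each among those left out for Rel, Nfkbid and Nfkbiz.

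In Tcons, Nfkbia and Nfkbiz fell with the muteins, and Rel fell with all 3 molecules. Both arms were fitted jointly with the antibody as a term. After WT IL-2, 0 members rose and 1 fell, beside 14.8% of genes that rose and 12.4% that fell. With H16R, 0 members rose and 6 fell, beside 16.1% of genes that rose and 14.9% that fell. With 3x, 0 members rose and 4 fell, beside 4.71% of genes that rose and 5.17% that fell. The CPM of Nfkbia in the 4 PBS Tcon libraries was 479 and 523 under isotype and 525 and 584 under block, and with 3x it was 312 and 359.8 under isotype and 321 and 339 under block. The 3x libraries lay below all PBS libraries. Its log2 fold change was -0.67 ± 0.10 (edgeR adjusted p = 0.00308) with 3x, -0.36 ± 0.10 (edgeR adjusted p = 0.0217) with H16R and 0.19 ± 0.10 (edgeR adjusted p = 0.188) with WT IL-2, where Tregs had rises of 0.27, 0.29 and 0.33 under isotype and 0.12, 0.29 and 0.30 under block. Nfkbiz gave -0.56 ± 0.13 (edgeR adjusted p = 0.0292) with 3x and -0.57 ± 0.13 (edgeR adjusted p = 0.0109) with H16R.

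The CPM of Rel in PBS Tcons was 291 and 312 under isotype and 161 and 171 under block, which did not overlap. In H16R Tcons it was 111 and 136 under isotype and 96.6 and 135 under block, which did, so that the fitted value for the block averages unlike treatments. Its log2 fold change was -0.89 ± 0.20 (edgeR adjusted p = 0.00885) with H16R, -0.79 ± 0.20 (edgeR adjusted p = 0.0381) with 3x and -0.52 ± 0.20 (edgeR adjusted p = 0.0803) with WT IL-2, and the last was lost in 7 fits that left out 1 library (-0.61 to -0.38, edgeR adjusted p = 0.103 to 0.219). The isotype WT IL-2 Tcon pair, at 131 and 268 CPM of Rel, was far apart. Its Treg markers summed to 644.5 CPM in replicate 1 and 1549 in replicate 2, against at most 795 in any other Tcon group. Its 6 erythroid markers summed to 272 CPM in replicate 1 and 17.4 in replicate 2. Without isotype WT IL-2 replicate 2 the WT IL-2 value was -0.31 (edgeR adjusted p = 0.0144) for Nfkbiz, -0.13 (edgeR adjusted p = 0.0364) for Nfkb1 and -0.11 (edgeR adjusted p = 0.0349) for Rela, all called. Block against isotype over all treatments had 0 members higher and 3 lower, beside 13.8% of genes higher and 15.1% lower. The members were Rel, -0.54 ± 0.14 (edgeR adjusted p = 0.0264), Nfkbid, -0.22 ± 0.06 (edgeR adjusted p = 0.0332), and Nfkbie, -0.22 ± 0.08 (edgeR adjusted p = 0.0737), of which Nfkbie was lost in 8 fits that left out 1 library (-0.22 to -0.17, edgeR adjusted p = 0.106 to 0.136). The mean of Nfkbie was 60.8 CPM in isotype PBS Tcons and 38.7 in blocked PBS Tcons, and 38.9 and 39.5 in H16R, 45.9 and 42.0 in WT IL-2 and 42.3 and 39.1 in 3x Tcons, so that isotype PBS stood apart from the other 7 groups. With H16R, Nfkbid and Nfkbie fell, -0.42 ± 0.09 (edgeR adjusted p = 0.00666) and -0.32 ± 0.11 (edgeR adjusted p = 0.062), as did Rela, -0.12 ± 0.04 (edgeR adjusted p = 0.0368). Nfkbie was lost in 4 fits that left out 1 library (-0.27 to -0.23, edgeR adjusted p = 0.151 to 0.179) and Rela in 2 fits that left out 1 library (-0.11, edgeR adjusted p = 0.107 to 0.117). The B cell markers summed to 951 to 1128 CPM in isotype PBS Tcons and to 164 to 175 in blocked PBS, 383 to 499 in isotype 3x and 155 to 188 in blocked 3x Tcons. In H16R Tcons the B cell markers summed to 174 to 232.5 CPM under isotype and 189 to 320.5 under block. The myeloid markers summed to 180 to 218 CPM in isotype PBS and 51.9 to 52.0 in blocked PBS Tcons, and to 113 to 157 in isotype and 694 to 863 in blocked WT IL-2 Tcons. With H16R they summed to 66.8 to 76.0 CPM under isotype and 244 to 254.5 under block, and with 3x to 72.4 to 98.7 and 294 to 319. The part of these cells in the Tcon values was not tested.

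The genes upstream of NF-kB were followed as a list of 23 kinases, adaptors and ligases, all of them tested. Of these, 10 rose and 5 fell with WT IL-2 under isotype, 12 rose and 3 fell with H16R and 8 rose and 3 fell with 3x. Of all tested genes 26% rose and 26.2% fell with WT IL-2, 31.4% and 32.8% with H16R and 31.3% and 32.3% with 3x. With the block 2 rose and 2 fell in PBS, 0 rose and 5 fell in WT IL-2, 0 rose and 8 fell in H16R and 3 rose and 11 fell in 3x mice, where 6.01%, 18.2%, 15.4% and 27.2% of all tested genes rose and 8.13%, 15.3%, 15.2% and 26.9% fell. Ikbkb, the catalytic IKK beta subunit, rose with the muteins under isotype, 0.38 ± 0.05 (edgeR adjusted p = 3.7e-07) with H16R and 0.37 ± 0.05 (edgeR adjusted p = 6.78e-07) with 3x, and its interaction of 3x and block was -0.43 ± 0.07 (edgeR adjusted p = 7.71e-05). Malt1, a paracaspase, rose with WT IL-2 and fell with the block in those mice, 0.46 ± 0.10 (edgeR adjusted p = 0.000489) and -0.43 ± 0.10 (edgeR adjusted p = 0.0019). In the non-canonical branch, Map3k14 (NIK) fell with 3x under block, -0.50 ± 0.05 (edgeR adjusted p = 2.21e-09). Traf3 and Birc2, which hold NIK in check, fell with H16R under isotype, -0.31 ± 0.06 (edgeR adjusted p = 5.76e-05) and -0.15 ± 0.08 (edgeR adjusted p = 0.0908). These are single comparisons of unlike molecules and arms, and they do not describe the branch as a whole.

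Of 19 feedback regulators and target genes, 8 rose and 2 fell with WT IL-2 under isotype, 7 rose and 5 fell with H16R and 2 rose and 7 fell with 3x, beside 26%, 31.4% and 31.3% of all tested genes that rose and 26.2%, 32.8% and 32.3% that fell. With the block 0 rose and 8 fell in PBS, 0 rose and 9 fell in WT IL-2, 3 rose and 6 fell in H16R and 6 rose and 9 fell in 3x mice, beside 6.01%, 18.2%, 15.4% and 27.2% of genes that rose and 8.13%, 15.3%, 15.2% and 26.9% that fell. Cd83, a surface protein of activated lymphocytes, fell most among the genes named by rule: its log2 fold change was -1.71 ± 0.16 (edgeR adjusted p = 1.04e-09) with H16R and -1.82 ± 0.16 (edgeR adjusted p = 4.3e-10) with 3x under isotype, and -1.13 ± 0.16 (edgeR adjusted p = 3.71e-05) with the block in PBS mice. B cells express Cd83 too, and the median sum of the B cell markers was 167 CPM in isotype PBS, 38.9 in isotype H16R, 37.3 in isotype 3x and 101 in blocked PBS Tregs; its part in the falls of Cd83 was not tested. Tnfaip3, which encodes the deubiquitinase A20, fell with the block in all 4 treatments, from -0.48 ± 0.10 (edgeR adjusted p = 0.00168) in PBS to -1.06 ± 0.10 (edgeR adjusted p = 2.19e-09) in 3x mice. Bcl3, an atypical nuclear IkB, went the other way in 3x mice: the block gave 1.25 ± 0.12 (edgeR adjusted p = 2.22e-09), and the interaction of 3x and block was 1.28 ± 0.16 (edgeR adjusted p = 3.41e-06). Icam1 rose with 3x under block, 0.37 ± 0.06 (edgeR adjusted p = 7.66e-06), and fell under isotype, -0.14 ± 0.06 (edgeR adjusted p = 0.0612). Birc3 fell with 3x under isotype, -0.27 ± 0.06 (edgeR adjusted p = 0.00017), and Traf1 rose with WT IL-2, 0.23 ± 0.05 (edgeR adjusted p = 0.000407).

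Of 12 TNF receptor superfamily and costimulatory inputs, 6 rose and 3 fell with WT IL-2 under isotype, 6 rose and 3 fell with H16R and 6 rose and 3 fell with 3x, against shares of all genes of 26%, 31.4% and 31.3% higher and 26.2%, 32.8% and 32.3% lower. With the block 1 rose and 3 fell in PBS, 4 rose and 6 fell in WT IL-2, 1 rose and 1 fell in H16R and 7 rose and 2 fell in 3x mice, against 6.01%, 18.2%, 15.4% and 27.2% of all genes higher and 8.13%, 15.3%, 15.2% and 26.9% lower. Tnfrsf9 (4-1BB), Tnfrsf4 (OX40), Tnfrsf18 (GITR) and Tnfrsf1b (TNFR2) rose with all 3 molecules under isotype, with WT IL-2 by 0.81 ± 0.10 (edgeR adjusted p = 1.06e-07), 0.68 ± 0.09 (edgeR adjusted p = 7.98e-07), 0.58 ± 0.07 (edgeR adjusted p = 3.28e-07) and 0.89 ± 0.08 (edgeR adjusted p = 5.04e-10). In WT IL-2 mice all 4 fell with the block, -0.76 ± 0.09 (edgeR adjusted p = 1.38e-06), -0.82 ± 0.09 (edgeR adjusted p = 1.84e-07), -0.48 ± 0.07 (edgeR adjusted p = 2.22e-05) and -0.74 ± 0.08 (edgeR adjusted p = 7.9e-08). In 3x mice Tnfrsf9, Tnfrsf4 and Tnfrsf1b rose with the block instead, 0.26 ± 0.09 (edgeR adjusted p = 0.0262), 0.24 ± 0.09 (edgeR adjusted p = 0.0315) and 0.32 ± 0.08 (edgeR adjusted p = 0.00143). These receptors feed signals into the NF-kB pathway.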

How the data were processed

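RNA of Tregs (32 libraries) and Tcons (16) was sequenced from stranded mRNA libraries. Per the labels and the methods, the authors aligned reads with OSA in Array Suite and quantified genes with RSEM on mouse build B38. The gene model they name, GENCODE v19, is numbered like a human release, and gene names here matched GENCODE vM21 for 51519 of the 53345 rows (96.6%). The authors deposited expected counts per gene, not normalized, and FPKM, which divides by transcript length and library total. Their DESeq2 1.30.1 tables (log2 fold changes, FDR and test statistics of their own comparisons) were not used.

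Expected counts were rounded and tested with edgeR 4.0.16 (R 4.3.3; TMM, glmQLFit, glmQLFTest) on protein-coding genes that passed a CPM of 0.5 in 4 or more libraries of the fit, as in the study's methods, with Benjamini-Hochberg adjustment over all genes tested and a threshold of 0.1. Standard errors were the log2 fold change divided by the square root of F. One fit held all 32 Treg libraries, one the Treg and Tcon libraries of the 16 mice with both (mouse as block), and one the 16 Tcon libraries (treatment and antibody as terms). The 10 members were named by symbol. Other genes were named from a fixed list of 16, of which 1 is not reported here, plus, for each member whose Treg group means span at least 1 log2 CPM unit (Rel), the 3 tested genes closest to it over those 8 means. The genes of the fixed list are given for some of their comparisons only. The members and the lists were chosen with earlier results of these data known. Alternatives were DESeq2 1.42.0, limma 3.58.1 on log2(FPKM + 1) and log2(FPKM + 0.1), library totals without TMM, no filter, libraries thinned to the smallest, each library left out, and a replicate block. The script was tested on simulated data.

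The Treg and Tcon library of a mouse carry the same mouse name in the labels and deviated together (correlations of deviations from group means 0.15 to 0.55, median 0.26, over 16 pairs). With 2 such mice a group, both give the same correlation, so these pairs hold 8 separate values. Isotype WT IL-2 Tregs include 2 libraries with the same mouse name (replicate 3), called 3a and 3b here and counted as separate samples. No 2 libraries of a group agreed within sampling noise (lowest chi-square per gene 4.43).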

Additional observations from a re-analysis of the deposited data

Results flagged for a closer look

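A pair of library values stood apart by Dixon's test among 80 groups of 4 Treg libraries (10 members in 8 groups), where chance flags about 1 in 20 groups. Rel was at 667 CPM in isotype PBS replicate 4, against 418 to 454 in the other 3 libraries of the group. Nfkbid was at 138 CPM in isotype 3x replicate 1, against 152 to 153 in the other 3.

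The response to a molecule differed between the block and isotype arms of Tregs, by the interaction term, for Nfkb1 with WT IL-2 (-0.14 on the log2 scale) and with 3x (0.31), for Nfkb2 with 3x (0.32), for Nfkbib with H16R (0.30) and with 3x (0.19), and for Nfkbie with H16R (0.21) and with 3x (0.28). The call of Nfkb1 with WT IL-2 was lost in 21 fits that left out 1 library. Those of Nfkbib with 3x and Nfkbie with H16R were lost in 6 each.

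The effect of IL-2, pooled over the molecules and both arms, differed between Tregs and Tcons of the same mice for 7 members. The differences of the log2 gaps were those of Nfkbiz (0.56), Nfkbia (0.56), Rel (0.37), Nfkbid (0.29), Nfkbie (0.24), Nfkb1 (0.18) and Relb (-0.18). Nfkbia had log2 fold changes of opposite sign with 3x in Tregs (0.27 under isotype and 0.12 under block, the latter lost with library totals in place of TMM) and in Tcons of both arms fitted jointly (-0.67).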

How the results depend on the processing

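No result changed direction where it was called under any alternative. DESeq2 left 257 of 260 member results on the same side of the threshold, limma on log2(FPKM + 1) 245, limma on log2(FPKM + 0.1) 246, no filter 245, library totals without TMM 242, thinning 179 of 190 and the fits without both libraries rich in B cell markers, chosen after seeing the data, 181 of 190; leaving out each library kept 7001 of 7200. Members called fell from 5 to 3 for WT IL-2 against PBS under isotype, from 1 to 0 for 3x against H16R under isotype and from 1 to 0 for the WT IL-2 interaction when libraries were thinned to the smallest, while they went from 2 to 3 for the H16R and from 4 to 5 for the 3x interaction. Among the changes with thinning, Rela and Nfkbib lost their calls with WT IL-2 under isotype, at -0.08 (edgeR adjusted p = 0.107) and 0.14 (edgeR adjusted p = 0.106). With the block in PBS mice Rela was lost, at -0.09 (edgeR adjusted p = 0.158), and Relb was called, at -0.21 (edgeR adjusted p = 0.0729). The H16R interaction had 1 called member in place of 2 without both libraries rich in B cell markers. WT IL-2 against PBS in Tcons had 2 in place of 1 with DESeq2, both limma fits and library totals. The cause was not tested.

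Leaving out each library in turn gave 3 (without isotype PBS replicate 3 or isotype WT IL-2 replicate 1) to 5 called members for WT IL-2 against PBS under isotype, and 0 to 2 for 3x against H16R under isotype. Under block it gave 6 to 10 for 3x against WT IL-2 and 2 to 5 for 3x against H16R, both lowest without MHC II block 3x replicate 4. For the interactions of WT IL-2, H16R and 3x it gave 0 to 2, 1 to 3 and 3 to 8, the last being 8 without MHC II block 3x replicate 2 and 7 without isotype PBS replicate 4. It gave 4 (without isotype PBS replicate 1) to 8 for the difference between the Treg and Tcon effects, and for WT IL-2 in Tcons from 0 to 4, the highest when isotype WT IL-2 replicate 2 was left out.

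Treg libraries with the same replicate number did not deviate together (correlations of deviations from group means -0.48 to 0.66, median 0.02, over 112 pairs), so the numbers do not pair mice across groups. With the replicate number as a block, 227 of 230 member results kept their side. Nfkbib with WT IL-2 under isotype (0.12, edgeR adjusted p = 0.101) and Rela with the block in PBS mice (-0.10, edgeR adjusted p = 0.113) were no longer called, and the 3x interaction of Nfkbia was (-0.15, edgeR adjusted p = 0.0975). Without the replicate block of the mouse, the difference between Treg and Tcon effects had 4 called members in place of 7. Tcon groups hold 2 libraries each, which limits their precision.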
